A study of Homo sapiens with 4 samples.

Results

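SOX2, SOX4, SOX9, SOX11, SOX12 and SOX13 are the 6 genes of the SOX family described here in MDA-MB-361, a luminal human breast cancer cell line. They were read through every probe set whose platform annotation named 1 of them as its only gene, which gave 20 of the 54675 probe sets (6 of 19775 genes) on the Affymetrix U133 Plus 2.0 array. The 6 genes were selected on their levels and their differences from pLKO on these same arrays, so all their values are given as a description, with no test. Total RNA from 4 cell populations was hybridized, 1 array each. shDCD clones 1, 2 and 3 expressed shRNAs against DCD (dermcidin, a secreted peptide of sweat glands and of some breast tumours) from the pLKO vector, and the pLKO population carried the vector alone. The labels call the shDCD populations clones, the study also calls them cell pools, and they expressed different shRNAs, so the spread among them includes any difference between hairpins. All 4 populations had the same cell line and the same vector backbone. The study compared each shDCD population with pLKO to find genes that followed DCD expression.

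SOX proteins are transcription factors that bind the minor groove of DNA through an HMG box, the domain first known from SRY, and bend it. SOX2 (SoxB1 group) works with POU5F1 in pluripotent cells and marks progenitors of the nervous system and of several epithelia. SOX4, SOX11 and SOX12 form the SoxC group of transcriptional activators, active in embryonic progenitors and in many carcinomas. SOX9 (SoxE group) drives cartilage formation and marks luminal progenitors of the mammary gland. SOX13 (SoxD group) lacks a known transactivation domain and can bind TCF factors of the Wnt pathway.

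Values are hybridization intensities, in which only values of 1 probe set can be compared between arrays. Differences are log2 of an shDCD array minus log2 of the pLKO array after quantile normalization, with intensities under 16 (the floor) set to 16. The array medians of the deposited intensities were 20 in shDCD clone 1, 24.7 in clone 2 and 13.4 in clone 3, against 20.6 in pLKO, and 43.9%, 39.3% and 55.1% of probe sets lay under 16 in the shDCD arrays, against 43.4% in pLKO. The DCD probe set had 7, 6 and 2.7 in the shDCD arrays and 2 in pLKO, under the floor on all 4, so it did not check the knockdown. shDCD clone 3 stood apart from the others: its correlations with the other 3 arrays across probe sets were 0.703 to 0.780, and the pair of shDCD clone 2 and pLKO reached 0.937. The ratio of 3′ to 5′ control probe sets, which is high in degraded RNA, was 9.67, 2.58 and 42.6 for ACTB in shDCD clones 1, 2 and 3, against 5.29 in pLKO. For GAPDH it was 2.18, 1.02 and 13.1 in the shDCD arrays, against 1.09 in pLKO. In such bulk RNA, fewer cells with a transcript and less of it per cell cannot be told apart.

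The stretch of 250 bases before the transcription start is shown for SOX2, SOX12 and SOX13, the genes whose brightest probe set kept 1 direction in all 3 shDCD arrays (RefSeq, GRCh38.p14, all on the plus strand, 5′ to 3′). The promoter table matched 4 of the 6 genes. Capitals mark matches on either strand to the GC box GGGCGG, to the letters CCAAT, to the TATA box TATAAA, and to the SOX core letters, which are ACAAT or the variant ACAAAG.
SOX2 (chr3:181711675-181711924): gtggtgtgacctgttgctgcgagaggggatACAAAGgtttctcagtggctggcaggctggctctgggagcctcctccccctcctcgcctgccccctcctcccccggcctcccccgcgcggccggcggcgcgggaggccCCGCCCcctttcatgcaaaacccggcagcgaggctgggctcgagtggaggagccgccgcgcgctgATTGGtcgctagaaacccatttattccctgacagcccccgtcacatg
SOX12 (chr20:325302-325551): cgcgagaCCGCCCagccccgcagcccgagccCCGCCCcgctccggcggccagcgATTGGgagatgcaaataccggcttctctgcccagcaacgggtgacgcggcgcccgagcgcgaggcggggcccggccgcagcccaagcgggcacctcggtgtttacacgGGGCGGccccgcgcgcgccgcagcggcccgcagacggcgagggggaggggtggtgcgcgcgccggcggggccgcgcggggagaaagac
SOX13 (chr1:204072865-204073114): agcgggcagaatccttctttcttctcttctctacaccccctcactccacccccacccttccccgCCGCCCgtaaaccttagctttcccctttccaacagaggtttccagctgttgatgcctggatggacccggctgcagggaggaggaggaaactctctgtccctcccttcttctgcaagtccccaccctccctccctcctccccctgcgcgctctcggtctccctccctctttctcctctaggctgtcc

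The SOX2 stretch held 1 match to ACAAAG, 1 to CCAAT and 1 to GGGCGG, and its GC content was 68.8%. SOX12 was richest in GC at 79.2%, with 3 matches to GGGCGG and 1 to CCAAT. SOX13 had 60.8% GC and 1 match to GGGCGG. No match to ACAAT or TATAAA was present in these 3 stretches. Of 35116 stretches of this length in the table, 13.7% held ACAAAG, 24.6% ACAAT, 32.0% CCAAT, 42.6% GGGCGG and 10.7% TATAAA, and their median GC content was 58%. The SOX4 stretch had 48.8% GC and 4 matches to CCAAT. These matches are letters only and do not show binding.

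SOX2 was the member with the largest difference from pLKO, and its brightest probe set was higher in all 3 shDCD arrays. Probe set 228038_at had deposited intensities of 57.9, 130.8 and 33.3 in shDCD clones 1, 2 and 3, against 19.2 in pLKO. After normalization these were 63.3, 82.6 and 54.2 in the shDCD arrays, against 18.0 in pLKO, so the shDCD values did not overlap that of pLKO, which lay just above the floor. The folds over pLKO were 3.52, 4.60 and 3.01, a mean log2 difference of 1.87 ± 0.31 (SD, n = 3). The study's rule asks for a 3-fold difference from pLKO, or more, in every shDCD array. By this fold alone, on the values as normalized, floored and filtered here, 10 of 27307 probe sets tested were higher (0.0366%) and 49 were lower (0.179%). The study used dChip for its own comparison, and its methods also ask for statistical significance in each comparison. The counts of 10 and 49 are therefore not those of the study and were not compared with them. 228038_at was the last of the 10 when they were ordered by the smallest of their 3 differences (1.59), and it was the 1 member probe set among those 10, with no member among the 49. Since SOX2 was chosen for this, the count says nothing further about it.

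**Figure D1:**
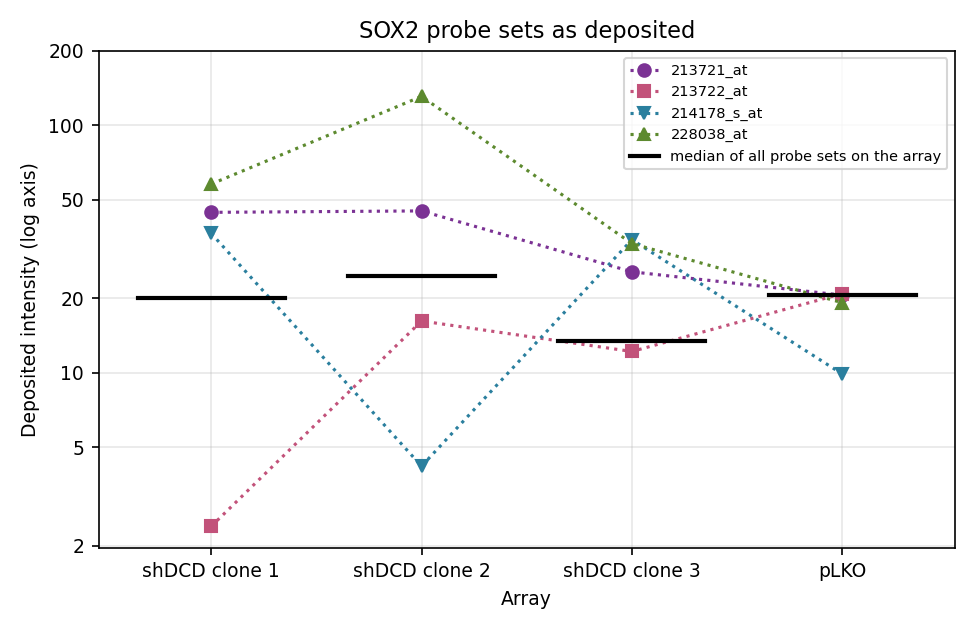
Deposited intensities (log axis) of the 4 SOX2 probe sets on the 3 shDCD arrays and the pLKO array, with black bars for the median of all probe sets on each array. 228038_at lies above the array median in the 3 shDCD arrays and just below it in pLKO (19.2 against 20.6).

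The size of the SOX2 difference depended on how the arrays were scaled to each other, and its direction was the same in the 3 scalings tried. As a multiple of the array's own median, 228038_at stood at 2.90, 5.30 and 2.49 in the shDCD arrays and at 0.932 in pLKO. With median centring the log2 differences were 1.64, 2.51 and 1.41 for clones 1, 2 and 3, and with the intensities as deposited they were 1.59, 2.77 and 0.79. Clone 3 was thus under 3-fold by both of these scalings, while clones 1 and 2 stayed above it.

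The other SOX2 probe sets did not all share this pattern. 213721_at had 44.5, 45.1 and 25.6 in shDCD clones 1, 2 and 3, against 20.6 in pLKO, and its differences were 1.28, 0.80 and 1.03. It was higher in each shDCD array but under 3-fold. Of the 27307 probe sets, 370 (1.35%) were higher in all 3 by as much as its smallest difference. As SOX2 was chosen on these values, this share says nothing further about it. 214178_s_at had 36.6, 4.2 and 34.5 in the shDCD arrays, against 9.9 in pLKO. Clone 2 and pLKO were both at the floor on this probe set, so it gives no fold for clone 2. Clones 1 and 3 were 2.33-fold and 3.54-fold above the floor, which are lower bounds for their folds over pLKO. 213722_at had 2.4, 16.2 and 12.2 in the shDCD arrays, against 20.9 in pLKO. It ran the other way by 0.17 to 0.29 on the log2 scale, with clones 1 and 2 at the floor, and its mean was too low to be tested. In pLKO none of the 4 exceeded 20.9, near the array median of 20.6.

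Across all members, 17 of the 20 probe sets passed the filter on low values and 16 lay above the floor on all 4 arrays. A probe set that passed through the shDCD arrays alone had to be higher there. The tested SOX2 probe sets were of this kind, with log2 values of 4.17 (228038_at), 4.26 (213721_at) and 4 (214178_s_at) in pLKO. For them a higher shDCD mean followed from the filter. Of the 20, 3 were higher in all 3 shDCD arrays (2 of SOX2 and 1 of SOX12), 3 were lower in all 3 (1 each of SOX2, SOX9 and SOX13) and 14 were mixed. With median centring 3 were higher and 6 were lower in all 3, and with the intensities as deposited 3 were higher and 10 were lower. The 20 include SOX2 213722_at, which was lower in all 3 but not tested, while the shares that follow cover probe sets tested. By any amount, with quantile normalization, 19.4% of all probe sets tested were higher in all 3 and 20% were lower in all 3. These shares were not computed under the other scalings, so the counts of 6 and 10 have none beside them. As deposited, the array median of clone 3 (13.4) lay below that of pLKO (20.6). The median difference of the 17 tested was 0.44 in clone 1, −0.51 in clone 2 and 0.56 in clone 3, beside medians of 0 in clones 1 and 2 and −0.0019 in clone 3 over all probe sets tested. In clone 2, 11 of the 17 were lower than pLKO and 5 were higher, against 47.7% lower and 49.8% higher over all probe sets tested. The 11 lower were 5 of SOX4 and 2 each of SOX9, SOX11 and SOX13. Probe sets of 1 gene are not independent, so the count does not describe the family. In clones 1 and 3, 6 of the 17 were lower and 11 were higher. With median centring, the members' medians were −0.20, −0.39 and −0.16 in clones 1, 2 and 3, so the sign in clones 1 and 3 turned with the scaling, and that in clone 2 did not. Medians over all probe sets tested were not computed with median centring.

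**Figure D2:**
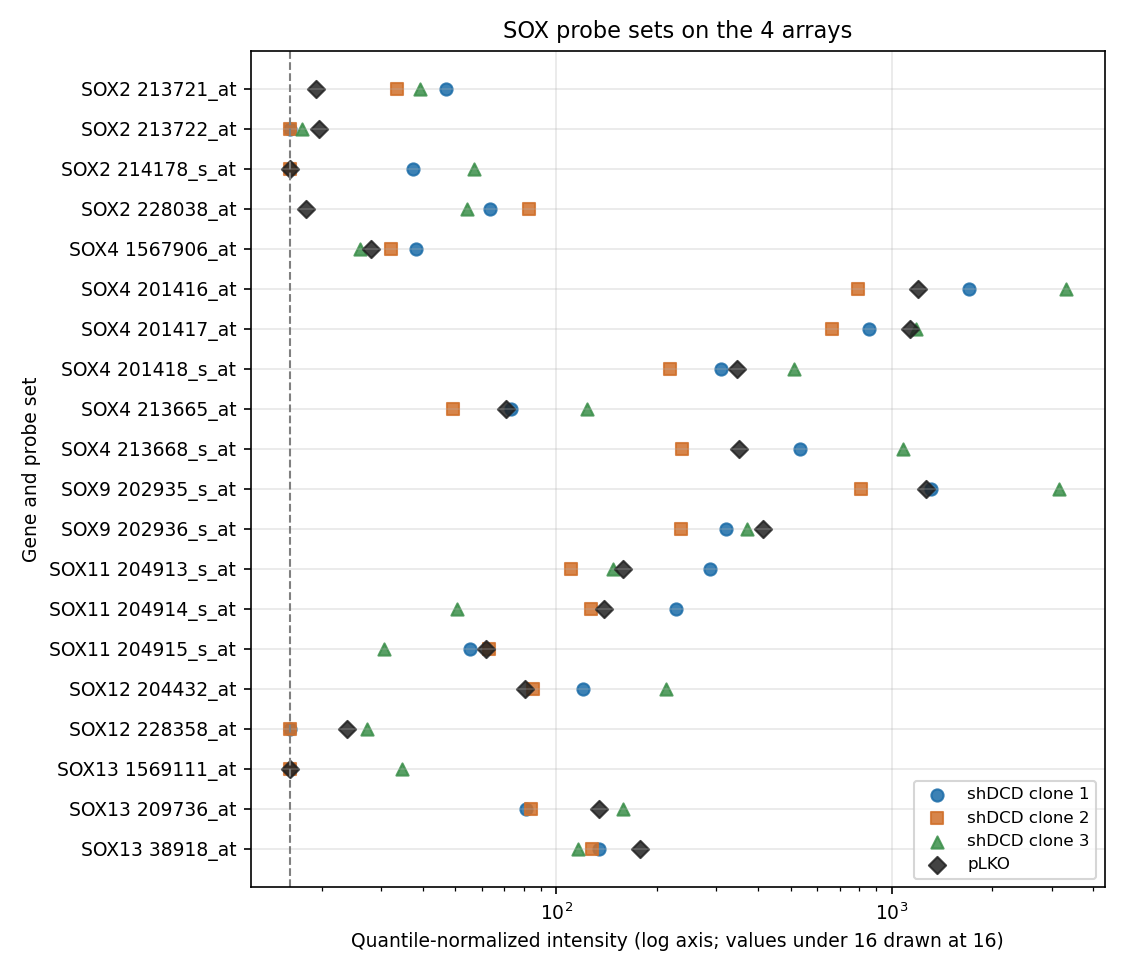
Quantile-normalized intensities (log axis) of the 20 member probe sets, 1 row each, on the 3 shDCD arrays and the pLKO array; the dashed line is the floor of 16. The 3 shDCD points of SOX2 228038_at (54.2 to 82.6) lie to the right of pLKO (18.0), and those of SOX13 38918_at lie to its left.

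SOX4, a SoxC activator linked to the mesenchymal transition of mammary cells, was the member with the most probe sets, and they moved differently in the 3 clones. Its brightest, 201416_at, had 1422.9, 1433.1 and 1646.8 in shDCD clones 1, 2 and 3, against 1685.9 in pLKO. The deposited shDCD values were thus all below pLKO, while the normalized differences were 0.50, −0.59 and 1.47, a mean of 0.46 ± 1.03 (SD, n = 3). 201417_at had 701.3, 1202.8 and 554.4 in the shDCD arrays, against 1601.4 in pLKO, with differences of −0.40, −0.77 and 0.07. The same gene on the same arrays thus differed in sign between these probe sets in clone 1.

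In clone 2 the SOX4 probe sets were of 1 direction, apart from the dim 1567906_at (37.3, 43.4 and 17.8 in the shDCD arrays, against 30.6 in pLKO). The other 5 were lower than pLKO by 0.53 to 0.77 on the log2 scale, and stayed lower with median centring (by 0.41 to 0.67) and as deposited (by 0.15 to 0.41). In clone 3 these 5 ranged between 0.07 and 1.63, the highest being 213668_s_at with 437.0, 416.4 and 509.6 in the shDCD arrays, against 461.9 in pLKO. With the deposited intensities 4 of these 5 were lower than pLKO in clone 3. The range over the 5 was 0.24 in clone 2, 1.00 in clone 1 and 1.56 in clone 3.

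SOX11, a SoxC factor of neural progenitors that is also expressed in basal-like breast tumours, was lower in clone 3 on all 3 of its probe sets. 204913_s_at had 245.6, 183.3 and 78.4 in shDCD clones 1, 2 and 3, against 200.7 in pLKO (differences 0.87, −0.51 and −0.10). 204914_s_at had 193.1, 212.8 and 31.5 in the shDCD arrays, against 177.1 in pLKO (0.71, −0.13 and −1.46). Clone 3 lay below pLKO on both, and clone 1 lay above it. 204915_s_at had 51.5, 95.6 and 20.7 in the shDCD arrays, against 74.5 in pLKO (−0.15, 0.04 and −1.01). The lower values in clone 3 held under all 3 scalings, from −1.87 to −0.74 with median centring and from −2.49 to −1.36 as deposited. No SOX11 probe set had 1 direction in all 3 clones.

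SOX12, the third SoxC gene and a weaker activator than its relatives in mouse studies, was higher than pLKO in all 3 clones on its brightest probe set. 204432_at had 105.1, 135.3 and 110.5 in shDCD clones 1, 2 and 3, against 100 in pLKO. Its differences were 0.58, 0.08 and 1.40, a mean of 0.69 ± 0.67 (SD, n = 3), and they stayed positive with median centring (0.11, 0.17 and 0.76) and as deposited (0.07, 0.44 and 0.14). Of all probe sets tested, 4400 (16.1%) were higher in all 3 by as much as its smallest difference. As SOX12 too was chosen on these values, that share is a description only. 228358_at had 5.1, 8.3 and 18.6 in the shDCD arrays, against 25.6 in pLKO, and was not tested because of its low mean. It did not share the direction, with clones 1 and 2 at the floor and clone 3 at 0.20.

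SOX9, which with SNAI2 can turn luminal mammary cells into stem-like cells in the mouse, had 1057.2, 1457.1 and 1547.0 on 202935_s_at in shDCD clones 1, 2 and 3, against 1797.8 in pLKO. The normalized differences were 0.05, −0.64 and 1.32, a mean of 0.24 ± 1.00 (SD, n = 3). 202936_s_at had 273.4, 413.9 and 184.5 in the shDCD arrays, against 557.9 in pLKO, with differences of −0.36, −0.81 and −0.16. The second probe set was thus lower in all 3 clones, and the first was lower in clone 2 and higher in clone 3. As deposited, both probe sets were lower in all 3 clones, and in clone 2 both were lower under all 3 scalings.

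SOX13 was the member whose brightest probe set was lower in all 3 clones. 38918_at had 116.8, 214.2 and 63.4 in shDCD clones 1, 2 and 3, against 227.6 in pLKO. The differences were −0.40, −0.47 and −0.62, a mean of −0.50 ± 0.11 (SD, n = 3), which was 1.32-fold, 1.39-fold and 1.53-fold lower. They kept their sign with median centring (−0.92, −0.35 and −1.22) and as deposited (−0.96, −0.09 and −1.84). 209736_at had 73.0, 133.1 and 83.9 in the shDCD arrays, against 170.4 in pLKO, with differences of −0.72, −0.67 and 0.24. It shared the direction in clones 1 and 2 but not in clone 3. 1569111_at, with 15.3, 4.4 and 23.1 in the shDCD arrays, against 3.1 in pLKO, was at the floor in clone 1, clone 2 and pLKO and was not tested.

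**Figure D3:**
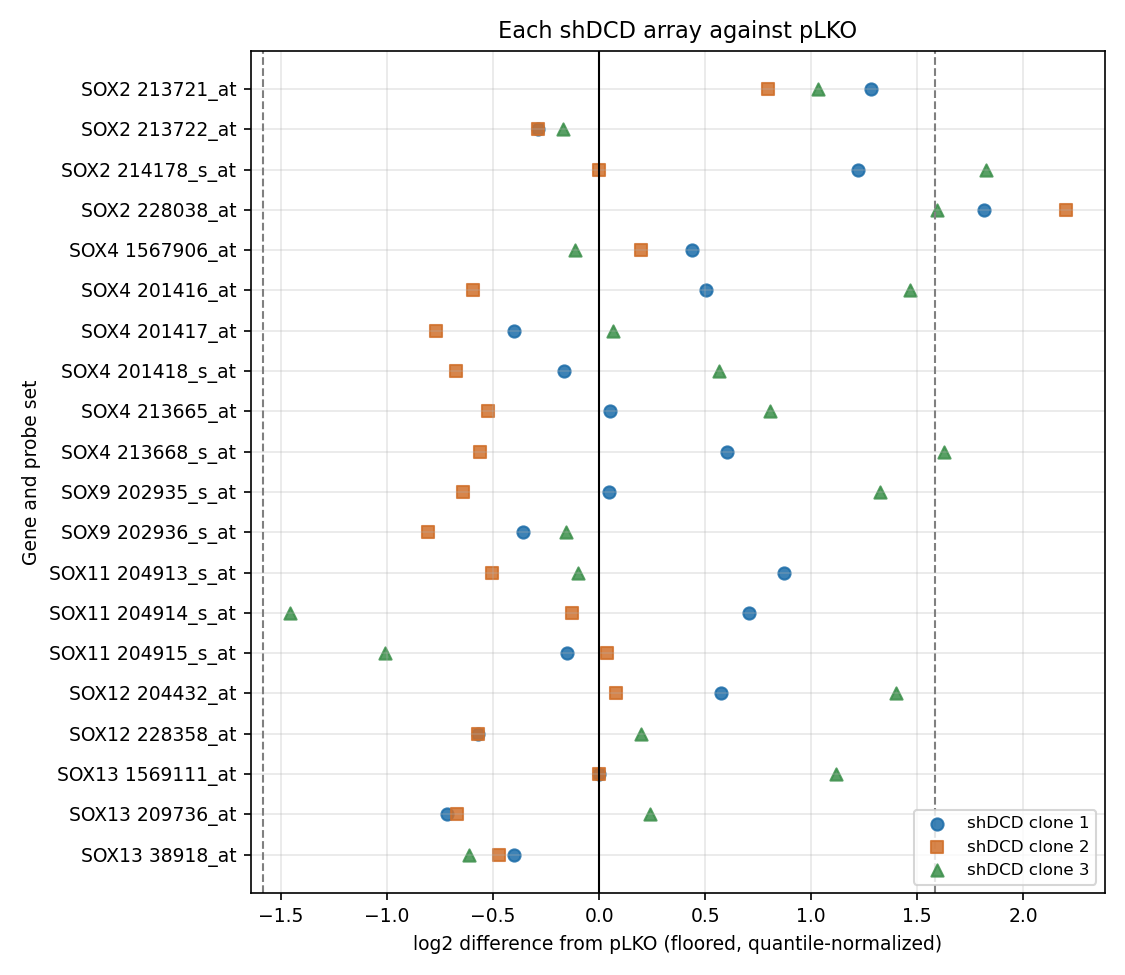
log2 difference of each shDCD array from pLKO (floored, quantile normalized) for the 20 member probe sets, with dashed lines at 3-fold. SOX2 228038_at is the 1 row with its 3 points at or beyond 3-fold (1.59 to 2.20), and in clone 2 all SOX4 points but 1 lie left of 0.

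Probe sets of 1 gene did not keep a fixed ratio across the arrays. Ratios of deposited intensities were taken within each array between the brightest and the next brightest probe set, for the 5 genes with more than 1 probe set tested. The ratio of SOX4 201416_at to 201417_at was 2.03, 1.19 and 2.97 in shDCD clones 1, 2 and 3, against 1.05 in pLKO. For SOX9 the ratio of 202935_s_at to 202936_s_at was 3.87, 3.52 and 8.38 in the shDCD arrays, against 3.22 in pLKO. For SOX11 the ratio of 204913_s_at to 204914_s_at was 1.27, 0.861 and 2.49 in the shDCD arrays, against 1.13 in pLKO. These 3 ratios were highest in clone 3, where the control ratios of ACTB (42.6) and GAPDH (13.1) were highest too. The other 2 genes did not share this order. For SOX13 the ratio of 38918_at to 209736_at was 1.60, 1.61 and 0.756 in the shDCD arrays, against 1.34 in pLKO, and so was lowest in clone 3. For SOX2 the ratio of 228038_at to 213721_at was 1.30, 2.90 and 1.30 in the shDCD arrays, against 0.932 in pLKO, and so was highest in clone 2. Ratios within an array need no scaling between arrays. The part of RNA quality in the SOX differences was not tested, and the positions of the probe sets in their transcripts were not used here.

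**Figure D4:**
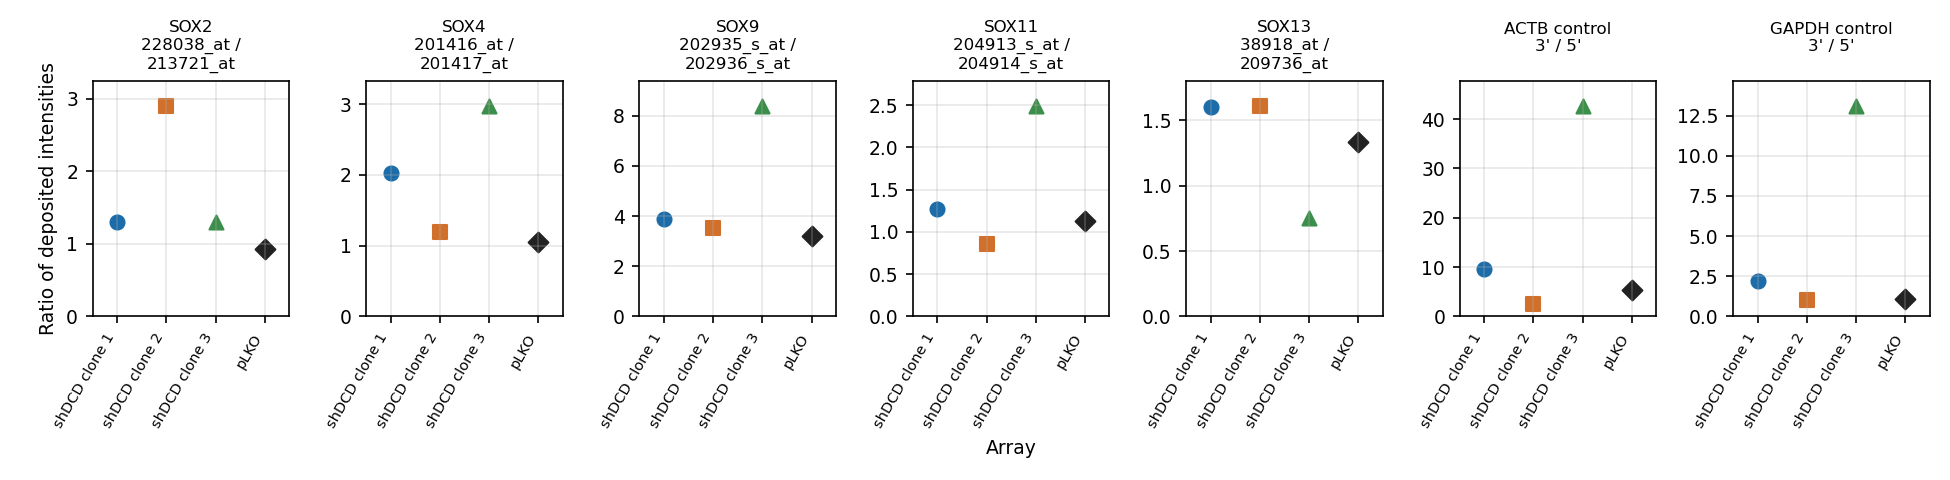
Ratios of deposited intensities between the brightest and the next brightest probe set of SOX2, SOX4, SOX9, SOX11 and SOX13 and between the 3′ and 5′ control probe sets of ACTB and GAPDH, 1 point per array. shDCD clone 3 is highest for SOX4 (2.97), SOX9 (8.38), SOX11 (2.49), ACTB (42.6) and GAPDH (13.1), lowest for SOX13 (0.756), and below clone 2 for SOX2.

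**Figure D5:**
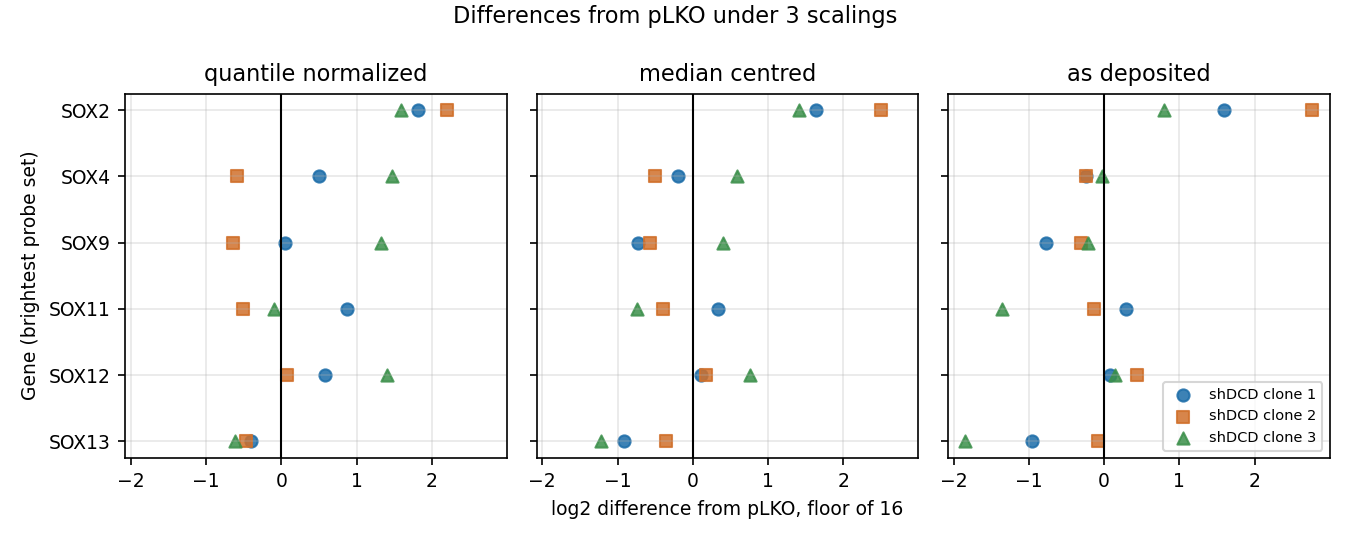
log2 difference of each shDCD array from pLKO for the brightest probe set of each member under quantile normalization, median centring and the intensities as deposited, with the floor of 16. SOX2 and SOX12 lie right of 0 and SOX13 lies left of 0 in all 3 panels, and SOX4 and SOX9 points of clone 3 cross 0.

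The remaining SOX genes were mostly too low to be tested. Of the 31 probe sets of 13 further SOX genes, 14 were at the floor on all 4 arrays and 5, of SOX5, SOX6, SOX10 and SOX15, were tested. SOX15, a factor of muscle and placental progenitors in the mouse, had 116, 188 and 61.4 on 217040_x_at in shDCD clones 1, 2 and 3, against 92.5 in pLKO, with differences of 0.83, 0.59 and 0.58. Its other tested probe set, 206122_at, had 50, 130.3 and 6.5 in the shDCD arrays, against 31.4 in pLKO, so it was higher in clones 1 and 2 and lower in clone 3. SOX10, a factor of neural crest, had 6.6, 31.5 and 7.4 in the shDCD arrays, against 37.6 in pLKO, with clones 1 and 3 at the floor. SOX6 differed in clone 3 on 235526_at, its only tested probe set, with 26, 47.1 and 59.4 in the shDCD arrays, against 28.7 in pLKO. Its untested 227497_at, 228214_at and 224178_s_at went the other way, with 29, 23.5 and 21 in pLKO and all 3 shDCD arrays at the floor. The remaining SOX6 probe sets were at the floor in clone 3 and pLKO. No gene of this list passed 3-fold in all 3 comparisons or a limma adjusted p of 0.05. SOX2-OT, the noncoding transcript within which SOX2 lies in RefSeq, had 8.1, 0.1 and 0.2 in the shDCD arrays, against 0.2 in pLKO, at the floor on all 4.

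The listed genes of pluripotency and genes linked to SOX2, not all of them transcription factors, were little detected. None of them passed 3-fold in all 3 comparisons. Of the 22 genes, 19 had a probe set of their own and 7 were tested. Of these 7, 2 were higher in all 3 clones, 2 were lower in all 3 and 3 were mixed. The shares over all probe sets tested were 19.4% higher and 20% lower in all 3. Here and in the lists below, the counts are of genes by their brightest probe set, and no share over genes was computed. The median difference of the 7 was 0.42, −0.25 and −0.60 in clones 1, 2 and 3. KLF4, a reprogramming factor and epithelial differentiation gene, had 99.6, 411.2 and 33.3 in the shDCD arrays, against 365.3 in pLKO, with differences of −1.30, −0.25 and −2.37. SALL2 had 79.3, 85.2 and 20.4 in the shDCD arrays, against 139.2 in pLKO, with differences of −0.31, −0.95 and −1.88. TFCP2L1, a factor of naive pluripotency in the mouse, had 45.5, 43.1 and 23.2 in the shDCD arrays, against 22.5 in pLKO (1.19, 0.61 and 0.73). UTF1, at the floor in pLKO, was the other higher gene. It passed the filter only through the shDCD arrays, so a higher mean there followed from the filter. POU5F1, the partner of SOX2 in pluripotent cells, had no probe set of its own alone.

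Among 19 stem and luminal progenitor genes of the breast, 11 were tested, of which 2 were higher in all 3 clones and 4 were lower. The shares over all probe sets tested were 19.4% higher and 20% lower. ITGA6, the integrin subunit CD49f used to sort mammary stem cells, was lower by the 3-fold rule, with 40.1, 83.5 and 42.4 in shDCD clones 1, 2 and 3, against 439 in pLKO. Its folds below pLKO were 8.06, 5.94 and 4.55. CD55 was more than 3-fold lower in 2 clones, with 4.5, 25.4 and 55 in the shDCD arrays, against 86.3 in pLKO, but not in clone 3 (−2.14, −1.84 and 0.49). NOTCH1 had 35.3, 60.2 and 30 in the shDCD arrays, against 21.9 in pLKO (0.80, 1.06 and 1.21). CD24, a luminal surface protein, had differences of 0.37, 0.49 and 0.29. The median over the 11 was −0.16, −0.26 and −0.05 in clones 1, 2 and 3.

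SOX factors share partners and targets with the Wnt pathway, of whose 21 genes 16 were tested. Of these, 5 were higher in all 3 clones and 4 were lower, with none past 3-fold in all 3. Over all probe sets tested, 19.4% were higher in all 3 and 20% were lower. MYC, a target of the pathway, had 64.7, 40.9 and 49.1 in shDCD clones 1, 2 and 3, against 172.5 in pLKO, with differences of −0.92, −2.14 and −0.64. GSK3B, the kinase that marks β-catenin for destruction, had 334.3, 517.8 and 261.2 in the shDCD arrays, against 261.9 in pLKO (0.98, 0.53 and 1.39). TCF7L2, a DNA-binding factor of the pathway, had differences of 0.57, 0.65 and 0.51, and APC, a scaffold of the destruction complex, had 0.96, 0.48 and 0.89. The median over the 16 was 0.33, 0.05 and −0.10 in clones 1, 2 and 3.

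Genes next to SOX2 on the long arm of its chromosome mostly had other differences from pLKO. Of 13 such genes, 8 were tested. Of these, 1 was higher in all 3 clones and 3 were lower, beside 19.4% and 20% of all probe sets tested. The higher one was TTC14, with 120.7, 156.9 and 187.3 in shDCD clones 1, 2 and 3, against 80.5 in pLKO (1.07, 0.55 and 2.50). B3GNT5 had 50.9, 53.8 and 3.8 in the shDCD arrays, against 99.3 in pLKO (−0.56, −1.05 and −2.33). Of the immediate coding neighbours on either side, DNAJC19 had differences of 0.01, −0.01 and −1.29 in clones 1, 2 and 3, and ATP11B had −0.14, 0.12 and 0.10. The median over the 8 was −0.25, −0.06 and −0.05 in clones 1, 2 and 3.

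Few known targets of the members were above the filter. Of 5 targets of SoxC factors, 3 were tested and none had 1 direction in all 3 clones. TUBB3, a neuronal tubulin, had 831.6, 1669.5 and 99.2 in shDCD clones 1, 2 and 3, against 935.4 in pLKO, and EZH2, a histone methyltransferase, had 91.4, 99.3 and 16.2 in the shDCD arrays, against 116.8 in pLKO. Both were lowest in clone 3. Of 11 cartilage genes that SOX9 activates, 4 were tested, and COL11A2 was the 1 higher in all 3 clones, beside 19.4% of all probe sets tested. COL11A2 had 104.9, 98.7 and 62.8 in the shDCD arrays, against 71.9 in pLKO (1.01, 0.12 and 0.94).

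All 9 luminal epithelial markers were above the filter. Of these, GATA3, KRT8, KRT18 and ESR1 were higher in all 3 clones (beside 19.4% of all probe sets tested). None was lower in all 3 (beside 20%). The other 5 were lower in clone 3, with differences there of −1.45 for KRT19, −1.17 for EPCAM, −1.15 for CDH1, −1.99 for FOXA1 and −1.64 for ERBB2. The median over the 9 was 0.34, 0.58 and −1.15 in clones 1, 2 and 3. GATA3, the luminal transcription factor, had 3459.7, 3990 and 3698.1 in shDCD clones 1, 2 and 3, against 1239.1 in pLKO, and was over 3-fold in clones 1 and 3 (4.39 and 7.32) but not in clone 2 (2.60). The summed intensity of the 9 was 26586.6, 42175 and 13085.2 in the shDCD arrays, against 25557.2 in pLKO. Of 4 basal markers, 2 had a probe set of their own and neither passed the filter, nor did the leukocyte marker PTPRC, and of 3 neural and neural crest markers SOX10 alone did. Of 5 mesenchymal markers 3 were tested, with medians of 0.77, 0.42 and 1.07 in clones 1, 2 and 3. COL1A1 was the brightest of them, with 199.9, 253.9 and 212.3 in the shDCD arrays, against 228.2 in pLKO. COL1A2 (1.29, 0.42 and 0.68) and DCN (0.77, 1.22 and 1.07, with pLKO at the floor) were higher in all 3 clones, beside 19.4% of all probe sets tested. DCN passed the filter only through the shDCD arrays, so a higher mean there followed from the filter. The summed intensity of the 3 mesenchymal markers tested was 283.9, 350.8 and 261 in the shDCD arrays, against 261.3 in pLKO. The part of these markers in the SOX differences was not tested.

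Of 12727 other genes tested, the 8 nearest to SOX2 by the Euclidean distance of their 3 log2 differences from pLKO were SULT1B1 (0.419), PPP3CA (0.424), CROT (0.496), CSTA (0.569), PPIL2 (0.578), KIR3DS1 (0.606), FAM241A (0.688) and NFRKB (0.789). PPP3CA, the catalytic subunit of calcineurin, had 591.7, 1796.6 and 383.5 in shDCD clones 1, 2 and 3, against 335.4 in pLKO. These are values of its brightest probe set, with folds of 2.81, 3.82 and 3.06, so clone 1 was under 3-fold. Another PPP3CA probe set passed 3-fold in every clone. Its smallest log2 difference was 2.35, above the largest of SOX2 228038_at (2.20). The likeness of PPP3CA to SOX2 is thus given for its brightest probe set only. CSTA, a protease inhibitor of epithelia, had 451.3, 1911.3 and 365 in the shDCD arrays, against 300.8 in pLKO, with folds of 2.39, 4.51 and 3.21. CROT, an acyltransferase of peroxisomes, had 104.8, 205.4 and 59.2 in the shDCD arrays, against 41.7 in pLKO. SULT1B1, KIR3DS1 and NFRKB were at the floor in pLKO and passed the filter only through the shDCD arrays. The brightest probe sets of PPP3CA, PPIL2 and KIR3DS1 can share signal with related transcripts. The likeness rests on 3 comparisons that share the pLKO array.

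Differences across all genes were also tested with limma, which took its spread from the 3 shDCD arrays and assumed that the single pLKO array varied like them. None of 27307 probe sets had an adjusted p under 0.05 (Benjamini-Hochberg), and 81 higher and 125 lower had an unadjusted p under 0.05. None of the listed genes passed, ITGA6 and GATA3 included. With 1 pLKO array there is no replicate check on the level that every comparison shares.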

How the data were processed

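RNA from 3 shDCD populations and 1 pLKO population of MDA-MB-361 cells was hybridized to 1 Affymetrix U133 Plus 2.0 array each. The deposited values are linear intensities, 1 per probe set, with the program that made them not given in the sources used here; the study's methods name dChip for its own comparison. The deposited medians differed between arrays, so 0 was set to 0.1 (2 values), log2 was taken, quantile normalization applied (limma 3.58.1, R 4.3.3) and a floor of 16 set. After 62 control probe sets were left out, the 27307 with a mean log2 at or above the median were tested. Of the probe sets, 41091 named 1 gene, 1801 several and 11721 none, and 41037 symbols were matched by gene identifier to a GRCh38.p14 table. Each gene was represented by its brightest probe set (highest mean log2), which left 12728 genes. Calls needed at least 3-fold in each of 3 comparisons, and limma was tested on simulated data of low spread. The members and the gene lists were chosen with earlier results of these data known. All 20 member probe sets were named, with up to 4 genes a list by the smallest of their 3 differences, those past 3-fold in 2 comparisons and the 8 genes nearest to SOX2. Alternatives were median centring, no scaling, floors of 1 and 64, other filters, a 2-fold threshold, the mean over probe sets, limma with trend and each shDCD array left out. Precision is limited by the number of arrays and by signal over background: 39.3% to 55.1% of probe sets lay under the floor.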

Additional observations from a re-analysis of the deposited data

Results flagged for a closer look

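The 3′ to 5′ ratio of the ACTB control probe sets was 42.6 in shDCD clone 3, against 5.29 in pLKO, and that of GAPDH was 13.1 in shDCD clone 3, against 1.09 in pLKO. Both come from control probe sets outside the comparisons of the SOX genes and lay above the level of the control array, which is why they are given here. In shDCD clone 1 the ratios were 9.67 and 2.18, and in shDCD clone 2 they were 2.58 and 1.02. Their part in the SOX values was not tested.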

How the results depend on the processing

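The mean difference of SOX2 (1.87) was positive under all 8 alternatives, but fell to 0.12 with a floor of 64, which lies above most SOX2 values, and to 0.92 as the mean of its probe sets. SOX12 was also positive under all 8 (0.19 to 0.99). SOX13 (−0.50) was negative under all 8, at −0.83 with median centring, −0.96 as deposited and −0.17 as the mean of its probe sets. On the brightest probe sets of SOX2, SOX12 and SOX13, all differences had 1 sign. Leaving out an array or moving the floor thus could not turn their means, so the counts of 8 do not measure stability. The others turned sign: SOX4 (0.46) with median centring (−0.04), as deposited (−0.17) and without shDCD clone 3 (−0.05); SOX9 (0.24) with median centring (−0.29), as deposited (−0.43), as the mean of its probe sets (−0.10) and without clone 3 (−0.30); SOX11 (0.09) with median centring (−0.26), as deposited (−0.40), as the mean of its probe sets (−0.19) and without clone 1 (−0.30). The cause was not tested.

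The 10 probe sets at least 3-fold higher became 246 with a floor of 1, 3 with a floor of 64, 173 at 2-fold and 27 to 198 with 1 shDCD array left out, where fewer comparisons must pass. The 49 lower became 90 with median centring, 96 as deposited, 22 with a floor of 64, 19 with an upper quartile filter, 210 at 2-fold and 88 to 360 with 1 array left out. limma called 0 under its alternatives except without the filter, where it called 1326 (1308 lower), 1221 of which were at the floor on all 3 shDCD arrays and so had no spread. Genes higher in all 3 comparisons numbered, with median centring and as deposited, 2 and 0 of the other SOX genes (main setting 1), 1 and 1 of the pluripotency genes (2), 1 and 1 of the stem cell genes (2) and 3 and 2 of the Wnt genes (5). The shares over all probe sets under those scalings were not computed. No paired analysis was possible because pLKO has 1 array. Low signal limits SOX2 most, since its brightest probe set lay at 18.0 in pLKO, near the floor of 16.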
